A study of Mus musculus with 4 samples.

Results

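The transcripts described here encode 10 transcription factors of the naive pluripotent state, Klf2, Klf4, Klf5, Tbx3, Esrrb, Zfp42, Tfcp2l1, Prdm14, Nanog and Nr0b1. They were taken by symbol from the mRNA table, and all 10 were found among its 13815 genes. Mouse embryonic stem cells labelled WT, dgcr8-/- and dicer-/- gave polyadenylated RNA libraries, and WT cells also gave a small RNA library. Every group carries the strain label V6.5, an established mouse stem cell line, and all were grown with serum (15%) and ESGRO (1000 units/mL), a commercial preparation of leukaemia inhibitory factor (LIF). The 4 groups have 1 library each. No difference below therefore has a replicate check or a p-value, and differences between cultures or clones cannot be told apart from genotype. The alleles of the knockouts and the passage of the cells are not given in the labels.

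The naive state is the ground from which cells of the early epiblast can form every tissue of the embryo. In cultured mouse stem cells it rests on Pou5f1 and Sox2 together with a wider ring of factors that sustain each other. LIF acts through the receptor chains LIFR and gp130 and the kinase JAK on STAT3, which activates Klf4 and Tfcp2l1. A second arm relieves repression by TCF7L1, which holds down Esrrb, Klf2, Tfcp2l1 and Nanog until beta-catenin removes it. In serum with LIF several of these factors, Nanog, Zfp42, Klf4 and Tbx3 among them, vary from cell to cell. DGCR8 and Dicer act one after the other in making miRNAs, DGCR8 with Drosha in the nucleus and Dicer in the cytoplasm.

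Levels are given in CPM, counts scaled to the same total in each library, where 1 CPM stands for 9.93 (WT), 11.12 (Dgcr8 knockout) or 12.31 (Dicer knockout) counts. Ratios carry exact 95% intervals for counting error only. Between 69.6% and 74.8% of genes with 2 to 9 counts had an even count, and intervals are too narrow if each mate of a read pair was counted. A gene counted as called where the libraries differed by at least 2-fold on log2(CPM + 1), a scale that understates the change of low genes. The members had between 237 and 8508 counts in a library, and counting error on them was small. The targeted genes were lower in their own knockouts without being at 0: Dgcr8 was at 20.9 CPM against 52.7 CPM in WT, and Dicer1 at 20.1 CPM against 79.9 CPM.

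The promoters of 4 members are shown because these genes gave the contrasts that follow, Klf2 high and Klf4 low in both knockouts, and Zfp42 low and Nanog close to its WT level in the Dicer knockout. Each sequence holds the 250 bases before the RefSeq start (assembly GRCm38.p6, not the mm9 build of the counts) on the gene's own strand. Capitals mark the GC box GGGCGG, bound by KLF and SP factors, and the octamer core TTTGCAT, bound by POU factors such as OCT4, on either strand.
Klf2 (chr8:72318812-72319061, + strand): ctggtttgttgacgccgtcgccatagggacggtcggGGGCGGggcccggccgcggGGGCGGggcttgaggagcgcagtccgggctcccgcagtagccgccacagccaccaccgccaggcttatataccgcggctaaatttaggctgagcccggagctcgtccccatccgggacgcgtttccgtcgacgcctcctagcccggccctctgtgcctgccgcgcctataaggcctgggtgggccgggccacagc
Klf4 (chr4:55532476-55532725, - strand): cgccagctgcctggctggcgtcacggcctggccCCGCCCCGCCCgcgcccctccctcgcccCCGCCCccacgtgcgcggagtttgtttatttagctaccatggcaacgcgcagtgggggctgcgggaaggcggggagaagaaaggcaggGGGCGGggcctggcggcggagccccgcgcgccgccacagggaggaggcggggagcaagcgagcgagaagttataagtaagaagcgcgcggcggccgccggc
Zfp42 (chr8:43307010-43307259, - strand): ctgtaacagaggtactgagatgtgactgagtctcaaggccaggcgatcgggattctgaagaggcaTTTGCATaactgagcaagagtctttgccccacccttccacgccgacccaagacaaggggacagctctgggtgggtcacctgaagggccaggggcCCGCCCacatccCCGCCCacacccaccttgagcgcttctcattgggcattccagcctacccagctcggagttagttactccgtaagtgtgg
Nanog (chr6:122707239-122707488, + strand): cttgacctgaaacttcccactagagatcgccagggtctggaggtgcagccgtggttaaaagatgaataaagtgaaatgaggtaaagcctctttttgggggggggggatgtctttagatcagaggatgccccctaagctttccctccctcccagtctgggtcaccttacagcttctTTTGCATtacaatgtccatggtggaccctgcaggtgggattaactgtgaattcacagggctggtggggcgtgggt

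The KLF promoters are rich in G and C, 71.2% for Klf2 and 74.0% for Klf4, against a median of 52.0% over 27025 promoters of the same length. Klf2 holds 2 GC boxes and Klf4 holds 4, of which a neighbouring pair overlaps by a base, and neither holds the octamer core. The GC box occurs in 33.0% of all these promoters. The octamer core, present in 4.07% of them, lies at positions -75 to -69 from the start in Nanog and -185 to -179 in Zfp42. In Nanog it is followed after 1 base by ACAATG, a SOX-type motif found in 10.9% of promoters, the arrangement known as the OCT-SOX element of this gene. Zfp42 also holds 2 GC boxes. Of the other members in the RefSeq table, Esrrb, Tfcp2l1 and Nr0b1 have neither GC box nor octamer core in this window, and Klf5, Tbx3 and Prdm14 were not searched. The common motif CACCC (51.3% of promoters), not marked above, has 1 match in Klf2, 2 in Esrrb, 3 in Zfp42 and 1 in Nr0b1. Klf4, Tfcp2l1 and Nanog have 0. Searches of both strands for the STAT-type motif TTCCNGGAA (0.918% of promoters) and the ESRRB-type motif TCAAGGTCA (0.366%) found neither in any of the 7 promoters. These matches describe letters in 1 window and show no binding.

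Klf2, Klf4 and Klf5 are zinc finger activators that bind the same GC-rich sites and can stand in for each other in stem cells, and they lay on opposite sides of WT. Klf2 had 63.9 CPM in WT, 765 CPM in the Dgcr8 knockout and 550 CPM in the Dicer knockout. The WT library was far below both knockouts, which were 11.96-fold (11.03 to 12.99) and 8.61-fold (7.93 to 9.35) higher. Klf4, a direct target of STAT3 and one of the reprogramming factors, went the other way.

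Its level was 429.7 CPM in WT, 103 CPM in the Dgcr8 knockout and 76.8 CPM in the Dicer knockout. That is 4.16-fold lower (3.90 to 4.45) and 5.59-fold lower (5.21 to 6.01) than in WT. Klf5, which is also needed for the trophectoderm of the blastocyst, followed Klf4 with smaller differences. It had 78.3 CPM in WT, 46.0 CPM in the Dgcr8 knockout and 28.4 CPM in the Dicer knockout, 1.70-fold lower (1.52 to 1.91) and 2.76-fold lower (2.43 to 3.14). Only the Dicer difference of Klf5 reached the 2-fold rule.

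**Figure D1:**
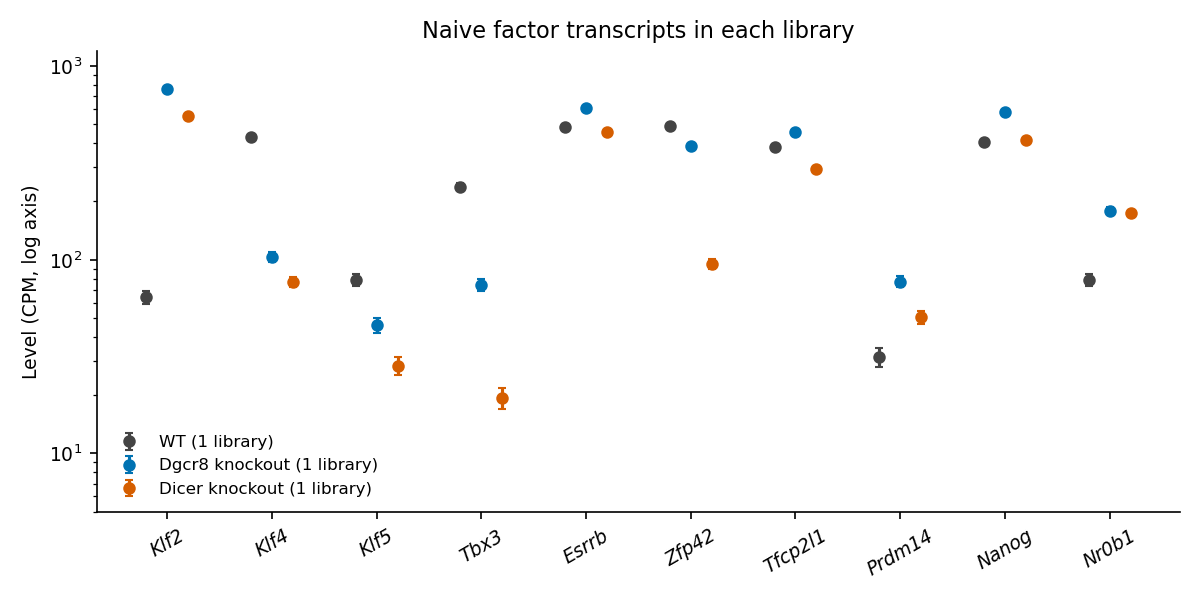
Level of each factor in CPM on a log axis, with 1 point per library and exact Poisson 95% intervals for counting error. Klf2 is at 63.9 CPM in WT and at 765 and 550 CPM in the knockouts, while Klf4, Klf5 and Tbx3 are highest in WT and lowest in the Dicer knockout. Heights of different genes are not comparable, since CPM takes no account of transcript length.

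The opposite differences of Klf2 and Klf4 did not rest on scaling. The ratio of Klf2 to Klf4 counts within a library, in which depth cancels, was 0.149 (0.137 to 0.162) in WT, 7.41 (6.97 to 7.89) in the Dgcr8 knockout and 7.16 (6.69 to 7.67) in the Dicer knockout. It was thus 49.8 and 48.1 times its WT value, and the intervals of the knockouts overlap each other. The ratios themselves depend on the lengths of the transcripts, but their change does not. Among all genes ranked from the highest ratio to WT, Klf2 stood at rank 29 of 13223 in the Dgcr8 knockout and at 131 of 13403 in the Dicer knockout. From the lowest, Klf4 stood at rank 150 and at rank 124.

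Tbx3, a T-box repressor and activator that LIF sustains through PI3 kinase, was the factor furthest below WT in the Dicer knockout. It had 239 CPM in WT, 74.4 CPM in the Dgcr8 knockout and 19.3 CPM in the Dicer knockout. The 3 libraries were well separated, the Dgcr8 knockout 3.21-fold lower (2.97 to 3.48) and the Dicer knockout 12.4-fold lower (10.85 to 14.2) than WT. Its log2 ratio ranked 29 from the lowest in the Dicer knockout and 289 in the Dgcr8 knockout. Tbx3 overlaps the antisense gene Tbx3os1 in GRCm38.p6, and whether strand was used in counting is unknown, so reads of the 2 genes may be mixed.

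Zfp42, also called Rex1, is a zinc finger factor related to YY1 and a standard reporter of the naive state. Its level was 488 CPM in WT and 386 CPM in the Dgcr8 knockout but 95.1 CPM in the Dicer knockout. The Dgcr8 knockout was thus 1.26-fold lower than WT (1.21 to 1.32) and the Dicer knockout 5.13-fold lower (4.81 to 5.47). Zfp42 and Nanog have annotated pseudogenes, whose reads may have been counted with the genes. Rlim, a ubiquitin ligase that marks the Zfp42 protein for destruction, had 105 CPM in WT, 87.02 CPM in the Dgcr8 knockout and 123 CPM in the Dicer knockout. Those values lie within 2-fold of each other.

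Nanog, Esrrb and Tfcp2l1 form the centre of the naive network, and none of them reached 2-fold in either knockout. Nanog, a homeodomain factor, had 405 CPM in WT, 577 CPM in the Dgcr8 knockout and 416 CPM in the Dicer knockout. Its Dgcr8 difference was 1.43-fold higher (1.37 to 1.48), and its Dicer ratio of 1.03 had an interval (0.987 to 1.07) that includes equality. On log2(CPM + 1) that Dicer difference was 0.04, and median-ratio scaling turned its sign. Esrrb, an orphan nuclear receptor that Nanog activates, was also highest in the Dgcr8 knockout.

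Esrrb had 487 CPM in WT, 607 CPM in the Dgcr8 knockout and 458 CPM in the Dicer knockout, 1.25-fold higher (1.20 to 1.29) and 1.06-fold lower (1.02 to 1.11) than WT. Tfcp2l1, a grainyhead-like factor downstream of both LIF and Wnt, had 382 CPM in WT, 458 CPM in the Dgcr8 knockout and 295 CPM in the Dicer knockout. It was 1.20-fold higher (1.15 to 1.25) and 1.29-fold lower (1.24 to 1.36). The ratio of Esrrb to Nanog counts within a library was 1.20 in WT, 1.05 in the Dgcr8 and 1.10 in the Dicer knockout. The ratio of Zfp42 to Nanog counts differed more, at 1.20 in WT, 0.669 in the Dgcr8 and 0.228 in the Dicer knockout. A lncRNA gene overlaps Esrrb and a pseudogene overlaps Tfcp2l1 in GRCm38.p6.

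Prdm14 and Nr0b1 are repressors and were higher in both knockouts. Prdm14, a PR-domain factor that restrains FGF signalling and DNA methylation and works with the corepressor CBFA2T2, had 31.5 CPM in WT, 77.2 CPM in the Dgcr8 knockout and 50.5 CPM in the Dicer knockout. Its differences were 2.45-fold (2.15 to 2.80) and 1.60-fold (1.40 to 1.84), of which only the first reached the rule. Nr0b1 (Dax1), an X-linked orphan receptor that binds OCT4 and limits its activity, had 78.6 CPM in WT, 179.6 CPM in the Dgcr8 knockout and 174 CPM in the Dicer knockout. It stood 2.28-fold (2.10 to 2.48) and 2.22-fold (2.04 to 2.41) above WT, with the intervals of the knockout levels overlapping.

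By the 2-fold rule 3 members were higher and 2 lower in the Dgcr8 knockout, where 14.3% of all 13223 genes were called higher and 8.02% lower. In the Dicer knockout 2 were higher and 4 lower, where 16.0% of 13403 genes were called higher and 9.70% lower. The members' median log2 ratios were 0.29 and -0.23, beside 0.11 and 0.10 over all genes tested. Median-ratio scaling, which sets the median of genes common to the libraries level, gave 1558 genes higher and 1349 lower in the Dgcr8 knockout, so that 53.6% of the calls were higher in place of 64.1%, and the members' medians were then 0.15 and -0.34. Both comparisons share the WT library, so a value that is unusual in WT enters both. All members passed the floor of 1 CPM in every library. The summed level of the 10 was 2683 CPM in WT, 3273 CPM in the Dgcr8 knockout and 2164 CPM in the Dicer knockout. Without Klf2, a sum chosen after its values were seen, it was 2619, 2508 and 1614 CPM, highest in WT.

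**Figure D2:**
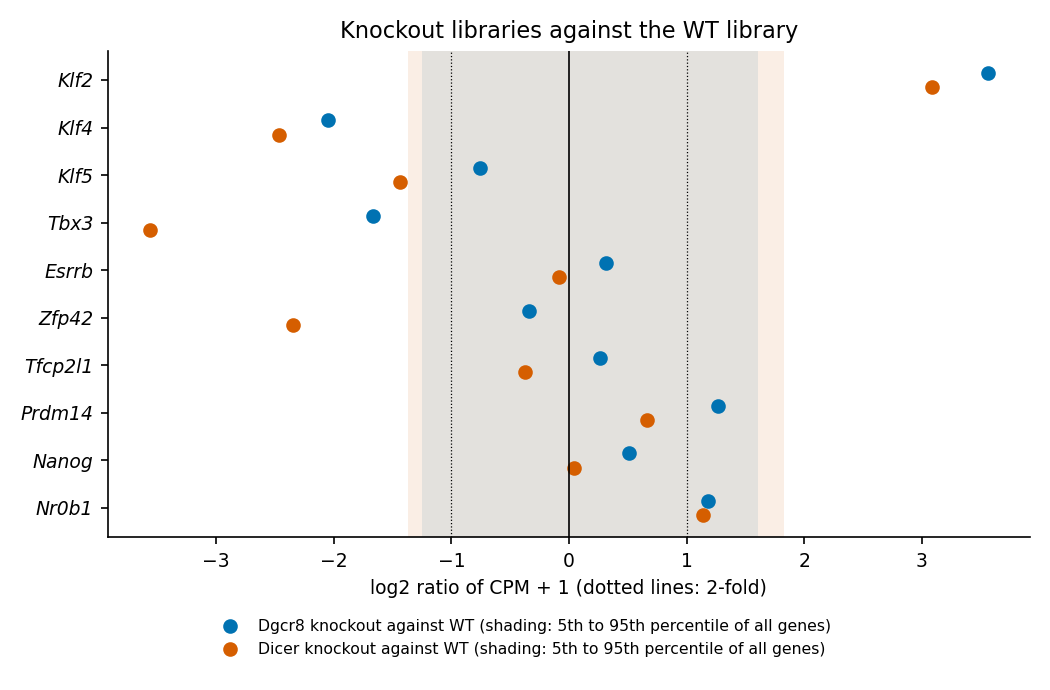
Log2 ratio of CPM + 1 of each factor in the knockouts to the same WT library, with shading from the 5th to the 95th percentile of all genes tested. In the Dgcr8 knockout Klf2 (3.56), Klf4 (-2.05) and Tbx3 (-1.67) lie outside its shaded range, and in the Dicer knockout Klf2 (3.09), Tbx3 (-3.57), Klf4 (-2.47), Zfp42 (-2.35) and Klf5 (-1.43) do.

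Set against each other, the knockouts do not involve the WT library. Zfp42 was 4.06-fold higher (3.80 to 4.33) in the Dgcr8 knockout than in the Dicer knockout, and Tbx3 was 3.86-fold higher (3.34 to 4.48). These 2 members reached the rule, and 4.15% of 12986 genes were called higher in this comparison and 5.05% lower. Their log2 ratios ranked 61 and 81 from the highest. The next largest ratio was that of Klf5, 1.62-fold (1.41 to 1.87). All 10 members lay on the same side, higher in the Dgcr8 knockout, as did 50.3% of all genes, and the interval of Nr0b1 alone included equality (1.03-fold, 0.969 to 1.10). The direction held for the 10 under each scaling tried. The members' median log2 ratio was 0.54, beside 0.00 over all genes.

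**Figure D3:**
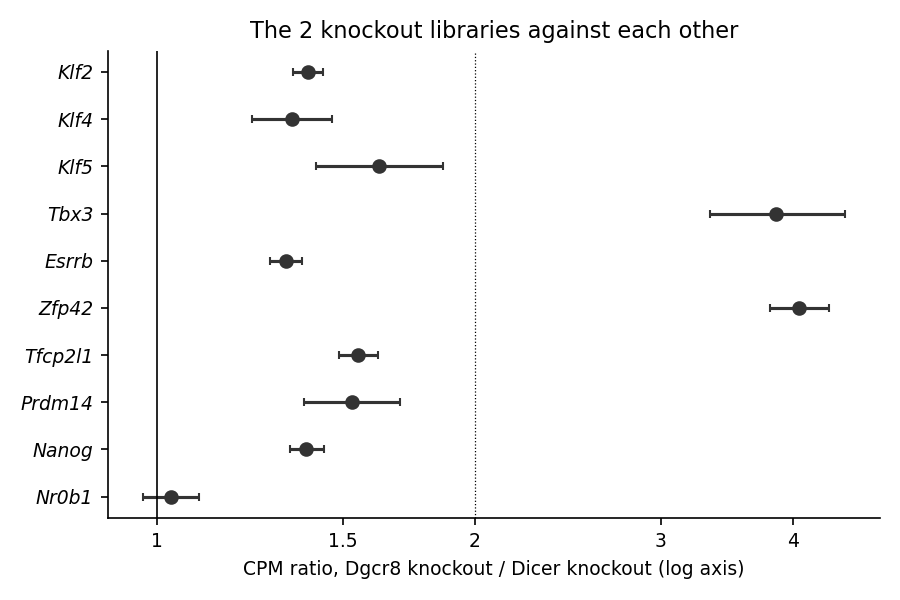
Ratio of CPM in the Dgcr8 knockout to CPM in the Dicer knockout for each factor, on a log axis, with exact 95% counting intervals; the dotted line marks 2-fold. Zfp42 (4.06) and Tbx3 (3.86) lie beyond 2-fold, the other 8 lie between 1.03 and 1.62.

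In bulk RNA, fewer cells in the naive state and less RNA per cell cannot be told apart, so markers of other states were read beside these values. All 10 stem cell markers were above 1 CPM in each library, and they summed to 10470 CPM in WT, 6914 CPM in the Dgcr8 knockout and 8093 CPM in the Dicer knockout. Abundant genes weigh most in these sums, and Dppa5a and Tdgf1 were lower in both knockouts. By number, 6 of the 10 markers were above WT in each knockout, with median log2 ratios of 0.27 and 0.30. All 10 also belong to the core or other naive lists described below, so those lists are not independent of this one. Of the 10, 2 were called higher and 2 lower in the Dgcr8 knockout, and 2 higher and 1 lower in the Dicer knockout. The shares of all genes were 14.3% and 16.0% higher and 8.02% and 9.70% lower. Pou5f1, which encodes OCT4, had 2207 CPM in WT, 1898 CPM in the Dgcr8 knockout and 1635 CPM in the Dicer knockout, and Sox2 had 382, 523 and 532 CPM. Fgf4 (2.34-fold and 2.06-fold) and Gdf3 were called higher in both knockouts (Fgf4 not in the Dicer knockout under TMM or median-ratio scaling), Tdgf1 was 3.15-fold and 3.53-fold lower, and Dppa5a (5564, 2715 and 4222 CPM) was called lower in the Dgcr8 knockout. Markers of 2-cell-like cells, 6 of 7 of them in the table, summed to 2.32 CPM in WT and 1.71 CPM in the Dgcr8 knockout. In the Dicer knockout they summed to 90.9 CPM. All 6 passed the floor only through the Dicer library and could only come out higher there. Tcstv1 and Gm428 were at 0 in WT, and Zscan4a and Tcstv1 in the Dgcr8 knockout. Trophectoderm markers, 6 of 8 in the table, summed to 83.3, 229 and 186.5 CPM, with Gata3 at 0 in WT. Krt8, Krt18, Tfap2c and Tead4 were each called higher in the Dgcr8 knockout. Krt18, Tfap2c, Tead4 and Gata3 were called higher in the Dicer knockout, Gata3 passing the floor only through that library. Eomes went the other way, with 10.2, 5.03 and 5.28 CPM, and was called lower only in the Dgcr8 knockout with median-ratio scaling. Feeder fibroblast markers (3 of 8) summed to 40.1, 11.1 and 2.52 CPM. Of these, Col1a1, and in the Dicer comparison also Pdgfrb, passed the floor only through WT and could only come out lower. Primitive endoderm markers (7 of 8) summed to 20.7, 9.35 and 8.12 CPM. Hnf4a was at 9.97 CPM in WT and at 0 in both knockouts, and Gata6 at 0 in the Dicer knockout. Of the 7, 3 were called lower and 1 higher in each knockout, beside the shares of all genes given above. Gata6, Sox7, Pdgfra, Dab2, Hnf4a and Cubn passed the floor only through WT and could only come out lower. Gata4, of the same list, was higher, with 15 counts (1.51 CPM) in WT against 86 (7.73 CPM) and 75 (6.09 CPM), and was called in both knockouts. Their part in the members' values was not tested.

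The LIF and STAT3 genes were examined because Klf4, Tfcp2l1 and Tbx3 lie downstream of LIF. Of 13 genes, 2 were called higher (15.4%) and 3 lower (23.1%) in each knockout. Over all genes, 14.3% (Dgcr8 knockout) and 16.0% (Dicer knockout) were called higher and 8.02% and 9.70% lower. The share higher was thus near that of all genes, and the share lower rests on 3 genes. Median log2 ratios were 0.10 in the Dgcr8 knockout (-0.03 with median-ratio scaling) and -0.05 in the Dicer knockout. Il6st, which encodes the signalling chain gp130, had 24.7 CPM in WT, 139.9 CPM in the Dgcr8 knockout and 95.9 CPM in the Dicer knockout, 5.67-fold (4.95 to 6.51) and 3.89-fold (3.38 to 4.48) higher. Lifr, the ligand-specific chain, had 3.63, 7.01 and 5.61 CPM. The transcription factor gene Stat3 had 78.5, 84.4 and 55.2 CPM and reached 2-fold in neither knockout. The kinase gene Jak2 had 5.14, 14.8 and 11.2 CPM and was called in the Dgcr8 knockout, and the ligand gene Lif, at 1.91, 4.77 and 6.26 CPM, was called in the Dicer knockout.

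The 3 genes called lower were the same in each knockout, and all are known to be activated by STAT3. Both comparisons share the WT library, so an unusual WT value would enter both. Whether STAT3 activity differed was not tested. Socs3, the feedback inhibitor and a standard readout of STAT3 activity, had 106.6 CPM in WT, 48.0 CPM in the Dgcr8 knockout and 29.98 CPM in the Dicer knockout, 2.22-fold (2.0 to 2.47) and 3.56-fold (3.16 to 4.01) lower. Pim3, a serine/threonine kinase gene, had 175, 54.8 and 69.05 CPM. The homeobox gene Gbx2 had 31.01, 13.9 and 13.7 CPM. Socs3, Pim3 and Gbx2 are thus the genes called lower. Pim1 and Junb, further targets, were not called in either, with log2 ratios of -0.25 and 0.38 in the Dgcr8 knockout and 0.47 and 0.20 in the Dicer knockout.

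**Figure D4:**
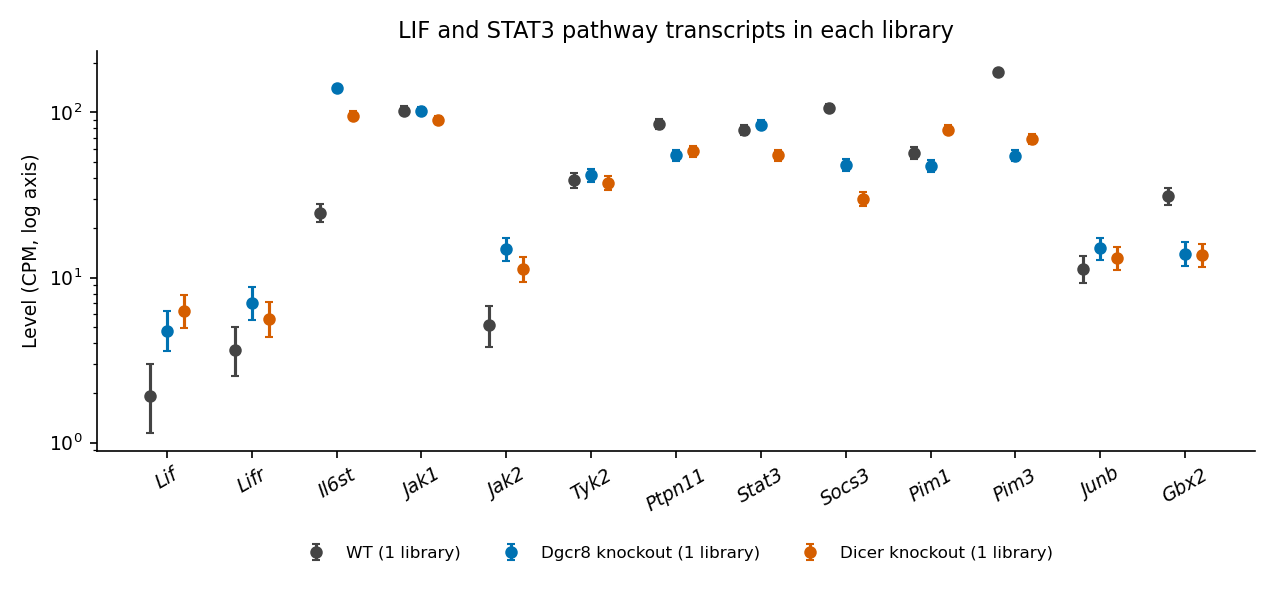
Level of the 13 LIF and STAT3 pathway genes in CPM on a log axis, with 1 point per library and exact Poisson 95% intervals. Il6st is lowest in WT (24.7 CPM), while Socs3 (106.6 CPM), Pim3 (175 CPM) and Gbx2 (31.01 CPM) are highest there; heights of different genes are not comparable.

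Of the genes for the TCF7L1 arm, 2 of 9 tested were called higher and 0 lower in the Dgcr8 knockout, and 3 of 10 higher and 1 lower in the Dicer knockout. For these and the BMP genes below, the shares of all genes were 14.3% and 16.0% higher and 8.02% and 9.70% lower. In the Dicer comparison Lef1 (0.503 CPM in WT, 3.25 CPM in the knockout) passed the floor only through the knockout and Axin2 only through WT, and with the floor asked of both libraries 2 of 8 were higher and 0 lower. Tcf7l1 itself, the repressor of Esrrb, Klf2, Tfcp2l1 and Nanog, had 59.3 CPM in WT, 155 CPM in the Dgcr8 knockout and 128.5 CPM in the Dicer knockout. Its ratios to WT were 2.62 (2.38 to 2.88) and 2.17 (1.97 to 2.39). Under median-ratio and TMM scaling Tcf7l1 was under 2-fold in the Dicer knockout. Of the targets named, Klf2 was higher in both knockouts, and Esrrb, Tfcp2l1 and Nanog were within 2-fold of WT. A link between Tcf7l1 and these levels was not tested. Tcf7l2 had 6.34, 24.2 and 24.9 CPM. Axin2, a feedback target of Wnt signalling, had 4.83, 2.70 and 0.975 CPM. Under BMP, which supports the naive state through ID proteins, the ligand gene Bmp4 had 18.3, 4.77 and 1.30 CPM and Id1 had 115, 60.2 and 53.3 CPM. Id3, at 11.9, 46.8 and 39.7 CPM, and Id2, at 15.4, 20.7 and 116 CPM, went the other way. Of the 9 BMP and ID genes, 1 was called in each direction in the Dgcr8 knockout and 2 in each direction in the Dicer knockout; other scalings added Id1 to the genes lower in the Dgcr8 knockout.

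Of 12 core and shared pluripotency genes, 1 was called higher and 1 lower in the Dgcr8 knockout, and 2 higher and 1 lower in the Dicer knockout. Beside them, 14.3% and 16.0% of all genes were called higher and 8.02% and 9.70% lower. The list had median log2 ratios of 0.50 and 0.18. The core genes called were the zinc finger gene Sall1 (101, 375 and 270 CPM, given here and below in the order WT, Dgcr8 knockout, Dicer knockout), the let-7 regulator Lin28a (151, 30.03 and 44.8 CPM) and, in the Dicer knockout, Rif1 (100.1, 179 and 245 CPM). Scaled to Pou5f1 counts in place of library size, Klf2 stood at 13.9 and 11.6 times its WT value, Klf4 at 0.279 and 0.241 times and Tbx3 at 0.362 and 0.109 times, with the Dgcr8 knockout given first. Zfp42 stood at 0.920 and 0.263 times on that basis.

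Other naive markers were divided in both knockouts. Of 16, 4 were called higher and 5 lower in the Dgcr8 knockout, and 5 higher and 4 lower in the Dicer knockout. The shares of all genes were 14.3% and 16.0% higher and 8.02% and 9.70% lower. Alpl, the alkaline phosphatase used to stain stem cell colonies, had 207, 587 and 543 CPM, and the TGF-beta family ligand gene Gdf3 had 66.5, 187.5 and 263.5 CPM. The Nodal coreceptor gene Tdgf1 had 1486, 471 and 421 CPM. Dnmt3l, a cofactor of DNA methylation, had 286, 73.4 and 84.6 CPM. Dppa3 (Stella) was lower in one knockout and higher in the other, with 49 counts in WT against 11 (Dgcr8 knockout) and 287 (Dicer knockout). It was below 1 CPM in the Dgcr8 knockout, where it could only come out lower. Factors of the exit from the naive state were nearly all within 2-fold. Of 10, only Fnip2, a partner of folliculin, was called, higher in each knockout (21.1, 43.9 and 44.8 CPM) but under 2-fold with median-ratio or TMM scaling.

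Markers of the primed epiblast, the state that follows the naive one, were divided in the Dgcr8 knockout and higher or within 2-fold in the Dicer knockout. Of 9 tested, 4 were called higher and 1 lower in the Dgcr8 knockout. Of 10 tested, 7 were called higher and 0 lower in the Dicer knockout. The shares of all genes were 14.3% and 16.0% higher and 8.02% and 9.70% lower. The markers' median log2 ratios were 0.53 and 1.83. Zic5 and Cdh2, in the Dicer comparison also Sox3, were below 1 CPM in WT, passed the floor only through a knockout and could only come out higher. Without them 2 of 7 were higher and 1 lower in the Dgcr8 comparison (median 0.23), and 4 of 7 higher and 0 lower in that with Dicer (median 1.11). With the floor asked of both libraries, 13.2% and 13.8% of all genes were called higher and 5.69% and 7.31% lower. Between the knockouts, 0 of 10 were higher and 5 lower in the Dgcr8 knockout, with a median of -0.91. Of all genes, 4.15% were called higher and 5.05% lower in that comparison. Without Sox3, which passed the floor only through the Dicer library, 4 of 9 were lower, with a median of -0.76. With the floor in both of these libraries, 3.33% of all genes were called lower. Otx2, which drives the exit to the primed state, had 2.11 CPM in WT, 18.97 CPM in the Dgcr8 knockout and 32.8 CPM in the Dicer knockout. Zic2 had 1.81, 72.9 and 63.1 CPM. Pou3f1 was at 7.25, 2.43 and 6.26 CPM, called lower in the Dgcr8 knockout. Dnmt3a, a DNA methyltransferase gene, had 56.9, 59.4 and 124 CPM. Fgf5, T and Foxa2, also on this list, were looked up but not found among the 13815 genes. They have no value in any library and are outside the counts above.

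**Figure D5:**
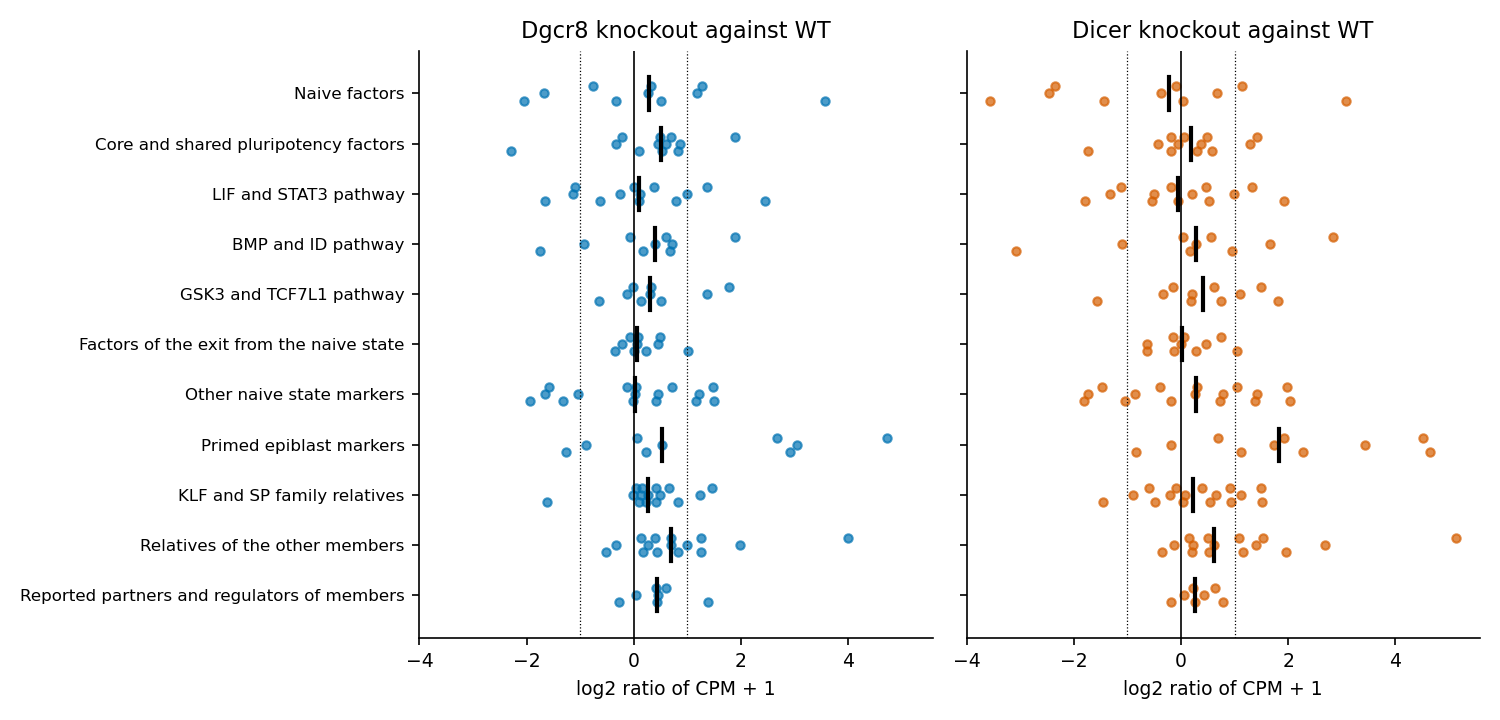
Log2 ratios of CPM + 1 to WT for the naive factors and 10 further gene lists, with 1 point per gene, a black bar at each median and dotted lines at 2-fold. The naive factors spread to both sides, from -2.05 to 3.56 in the Dgcr8 knockout and from -3.57 to 3.09 in the Dicer knockout, while primed epiblast markers have the highest median in the Dicer knockout (1.83, or 1.11 without the 3 of 10 genes that passed the floor only through that library).

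Family relatives of the members were checked for like differences. Their counts stand beside 14.3% and 16.0% of all genes called higher, and 8.02% and 9.70% lower, in the Dgcr8 and Dicer knockouts. Of the other KLF and SP genes, 2 of 15 tested were called higher and 1 lower in the Dgcr8 knockout, and 3 of 16 higher and 1 lower in the Dicer knockout. The third of these, Sp5, with 2 WT counts against 20 after loss of Dicer, was tested only because the Dicer library passed the floor. Klf13 (26.5, 75.0 and 76.6 CPM) and Klf6 (22.6, 54.6 and 66.1 CPM) were higher, and Klf15 (27.1, 8.18 and 9.26 CPM) was lower. No KLF relative had a log2 ratio as far from 0 as that of Klf2 or Klf4 in either knockout. Among the relatives of the other members, 4 of 15 were called higher with loss of Dgcr8 and 7 with loss of Dicer (6 under TMM or median-ratio scaling, without Prdm4), with 0 lower in each. Prdm1 and Tbx4 were below 1 CPM in WT, passed the floor only through the knockouts and could only come out higher. Without them 2 of 13 (15.4%) and 5 of 13 (38.5%) were called. With the floor asked of both libraries, 13.2% and 13.8% of all genes were called higher, so the share in the Dgcr8 knockout was near that of all genes. Prdm1, which encodes BLIMP1, had 4 counts in WT against 237 (Dgcr8 knockout) and 596 (Dicer knockout). Prdm16 had 7.65, 33.4 and 18.3 CPM, and Tbx4, of the same subfamily as Tbx3, had 0.403, 2.34 and 8.04 CPM. Of 7 reported partners and regulators of the members, 1 was called, Ncoa3, a coactivator of ESRRB, higher in the Dgcr8 knockout (127, 335 and 171 CPM).

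The genes most like a member were found by the distance between pairs of log2 ratios to WT, over the 9763 genes that reached 10 CPM in some library. With 3 libraries such a pattern is only 2 numbers, and for Esrrb 701 genes lay within 0.25 of it. The patterns of Klf2, Klf4, Tbx3 and Zfp42 were rarer, with 3, 9, 0 and 6 genes within that distance. Nearest to Klf2 were Ankrd52 (distance 0.16), Cbr3 (0.20) and Vax2 (0.20). Vax2 had only 1.91 CPM in WT. Nearest to Klf4 were Clgn (0.05), Thnsl2 (0.09) and Elovl4 (0.10). These were low genes, Clgn for example at 10.2 CPM in WT and 1.62 and 1.06 CPM in the knockouts. At such levels the added 1 CPM shrinks the log2 ratio, so likeness on this scale is not likeness in fold. With 50 CPM asked for, 0 of these 3 genes remained nearest to Klf4. Nearest to Zfp42 were Hebp1 (0.04), Cntfr (0.04) and Ndrg1 (0.09). Within 0.25 of Klf5, Tfcp2l1, Prdm14, Nanog and Nr0b1 there were 75, 322, 162, 533 and 284 genes.

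The small RNA library shows which miRNAs that are known as regulators of these factors were present in WT cells, and gives no value for the knockouts. Klf2 and Klf4 are reported targets of miR-92a and its relatives, which share a seed, the bases 2 to 8 that pair with a target. The family is shown because one member belongs to the miR-17~92 cluster named in the study's title. Sequences are from RefSeq (GRCm38.p6), with the seed in capitals.
miR-25-3p: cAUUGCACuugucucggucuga
miR-32-5p: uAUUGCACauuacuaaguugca
miR-363-3p: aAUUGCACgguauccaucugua
miR-92b-3p: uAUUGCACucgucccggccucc
miR-92a-3p: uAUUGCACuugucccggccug
miR-367-3p: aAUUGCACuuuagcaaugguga

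These 6 miRNAs made up 1.72% (exact Clopper-Pearson 95% interval 1.71 to 1.74) of 2594949 small RNA reads. Most of that came from miR-25-3p, with 26234 reads (1.01%, rank 10 of 707), and miR-32-5p, with 16261 reads (0.627%, rank 14). MiR-363-3p had 1870 reads, miR-92b-3p 164, miR-92a-3p 161 and miR-367-3p 36. MiR-92a-3p is made by 2 loci in the RefSeq table, and how reads matching several loci were counted is unknown, so its low count is uncertain. Klf2 was higher and Klf4 lower in the knockouts, so these 2 reported targets of 1 seed family differed in direction. A link between these miRNAs and either level was not tested.

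MiR-34a, miR-134, miR-296 and miR-470 are reported to target Nanog and were rarer than miR-25-3p. They are shown for their unlike seeds, again in capitals.
miR-34a-5p: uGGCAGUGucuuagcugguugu
miR-134-5p: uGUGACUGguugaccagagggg
miR-296-5p: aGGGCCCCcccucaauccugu
miR-470-5p: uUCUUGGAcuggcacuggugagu

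MiR-34a-5p had 2039 reads (0.0786%), miR-34c-5p 1622, miR-134-5p 445 (0.0171%), miR-296-5p 191 (0.00736%) and miR-470-5p 16 (0.000617%). The whole miR-34 and miR-449 group came to 0.147% of reads. Of the miRNAs linked to Klf4 and other stem cell factors, miR-429-3p had 7107 reads (0.274%), miR-183-5p 5083 (0.196%), miR-200b-3p 454, miR-203-3p 228, miR-200c-3p 180 and miR-145a-5p 52. Each therefore lay below miR-25-3p in these reads.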

How the data were processed

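Whole-number counts per RefSeq entry (3 mRNA libraries) and read counts per mature miRNA (1 library) were used as the authors deposited them. Bowtie, without a version, and the build mm9 are named in the submitters' processing notes; for the counter, annotation and use of strand, the sources used here give nothing. The kits used were for stranded polyadenylated RNA and for small RNA, per the labels' protocols. Empty cells were read as 0, and each row reaches 10 counts in some library. Totals were 9931625 (WT), 11123498 (Dgcr8 knockout) and 12309100 (Dicer knockout) mRNA counts and 2594949 small RNA reads.

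A gene was tested against the 2-fold rule where either library of a pair reached 1 CPM. Ratios of CPM have exact conditional binomial intervals, levels exact Poisson and shares exact Clopper-Pearson intervals, all at 95% and for counting error only, since PCR reads are not independent molecules. No test was run, each group being 1 library. The calculation was tested on simulated data. Symbols were matched in the table or, by accession, through RefSeq genes of GRCm38.p6. Sequences come from RefSeq; 7 of 10 members had a promoter entry, and the most upstream start was taken. The members and gene lists were chosen with earlier results of these data known. Named genes are the members, the targeted genes, fixed pathway genes, up to 4 per list at 2-fold in 1 direction in both knockouts and up to 2 going the other way, the 3 nearest to each member (printed for Klf2, Klf4 and Zfp42; those of Tbx3 are not reported here) and the most abundant linked miRNAs. Pseudocounts of 0.1 and 5 CPM, no floor and a floor of 5 CPM, a floor in both libraries (added after seeing the data), size rules of 1.5-fold and 4-fold, and scaling by median ratios or by TMM (edgeR 4.0.16, R 4.3.3) were tried as alternatives.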

Additional observations from a re-analysis of the deposited data

How the results depend on the processing

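Every member called at 2-fold kept its call under the 2 pseudocounts, the 2 floors and the 2 scalings other than CPM, in each of the 3 comparisons. Counts of members in the Dgcr8 knockout against WT were 1 higher and 1 lower at 4-fold. In the Dicer knockout 1 was higher and 3 were lower at 4-fold. Between the knockouts 5 members were higher at 1.5-fold and 1 at 4-fold. Of 30 member ratios, 13 moved beyond their counting interval with median-ratio scaling, 10 with TMM, 1 with a pseudocount of 5 CPM and 0 with 0.1 CPM. None of the called ratios changed sign. The genes nearest to a member shared fewer than 2 of 3 with the first list for 7 of 10 members when a level of 50 CPM was asked for. Leaving the most abundant miRNA, miR-293-3p, out of the total moved 21 of 31 miRNA shares beyond their interval, and summing arms moved 17.

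Counts over all genes moved more. In the Dgcr8 knockout against WT there were 1087 higher and 411 lower with a pseudocount of 5 CPM, 696 lower with a floor of 5 CPM, 3581 and 2345 at 1.5-fold, and 342 and 159 at 4-fold. In the Dicer knockout there were 1232 and 591 with a pseudocount of 5 CPM, 3759 and 2642 at 1.5-fold, and 539 and 233 at 4-fold. Between the knockouts there were 849 higher and 1004 lower with a pseudocount of 0.1 CPM, 182 and 222 with 5 CPM, 415 lower with a floor of 5 CPM, 1642 and 1618 at 1.5-fold, and 63 and 114 at 4-fold. Genes higher made up 64.1% (Dgcr8 knockout) and 62.3% (Dicer knockout) of the calls against WT; with median-ratio scaling these shares were 53.6% and 55.4%, with TMM 55.4% and 55.6%. The median log2 ratio of all genes went from 0.11 to -0.02 and from 0.10 to -0.01 with median ratios. No paired analysis was possible because each group has 1 library. A floor of 1 CPM in both libraries, added after seeing the data, kept every count of members; of all genes it left 673 lower in the Dgcr8 knockout, 864 lower in the Dicer knockout and, between the knockouts, 399 lower in the Dgcr8 knockout, since fewer genes were tested.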
